A study of Mus musculus with 36 samples.

Results

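A set of 10 genes of the interleukin-6 family pathway was followed in mouse pancreatic fibroblasts: the cytokine genes Il6, Lif and Il11, the receptor genes Il6ra, Il6st, Osmr and Lifr, the signal gene Stat3 and its feedback inhibitor Socs3, together with Il33, an alarmin of the IL-1 family that is often read beside them in inflammatory fibroblasts. They were taken by symbol from a table of 39017 genes, and all of the 10 passed the filter on low counts. RNA came from C57BL/6 fibroblasts after 48 h, either cultured alone (mono-culture) or together with a tumour line that carried GFP and was then removed by flow sorting. The titles of the mono-culture libraries carry the letters PSC. The tumour lines were the sub-clones E, H, K, M, N, T and V and KPC1, whose name is not explained in the labels. Each of the 9 groups had 4 libraries, 36 in all. The labels give no genotype, age or further agent for any group, each clone is a single line, and nothing says that the 4 libraries of a group came from separate cultures or animals, so p-values measure the spread between libraries only.

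Cytokines of the IL-6 family signal through receptor complexes that share the chain gp130, encoded by Il6st. IL-6 and IL-11 first bind their own alpha chains, while LIF and oncostatin M pair gp130 with the LIF receptor or the oncostatin M receptor. The complexes activate JAK kinases, which phosphorylate STAT3, and STAT3 in turn switches on Socs3, whose product shuts the receptor down. In pancreatic tumours, fibroblasts are known as a source of IL-6 and LIF.

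Library totals lay between 12532122 and 21985538 counts, so the members rested on means of 19.2 (Il11) to 5962 (Il6st) counts per library, and the lowest single values were 4 counts for Il11 and 7 for Il6. Levels between samples are given in CPM (read counts relative to library size, TMM-scaled), levels between genes as RPKM, and differences as log2 fold changes from 1 edgeR fit of the 36 libraries, called at a Benjamini-Hochberg adjusted p under 0.05. All 10 fibroblast markers examined were expressed, with a summed mean of 22400.0 to 35050.0 CPM per group. They did not stay level: 4 were called higher and 6 lower with clone T and with KPC1. With clone H 3 were higher and 5 lower, and with clone V 2 were higher and 5 lower. Of all genes tested, 49.8% (clone T), 59% (KPC1), 54.2% (clone H) and 58.3% (clone V) were called in either direction. Lum, Dcn and Pdgfra reached -4.29, -2.20 and -1.68 at their lowest on the log2 scale. With the other lines none was lower. Of 7 leukocyte markers 3 passed the filter, with group sums of 5.44 to 13.7 CPM: Cd68 was called higher with clones H, N and T and KPC1, Lyz2 lower with 7 lines (log2 fold changes down to -6.21) and Csf1r lower with clone T. Ptprc had at most 3 counts and Cd3e none. Of 4 endothelial markers 2 passed, with group sums of 1.29 to 3.14 CPM, Pecam1 being called higher with clone N and Kdr with no line, and Tie1 had no count. Epithelial markers moved with co-culture. The sum of 13 of them was 2.81 to 3.52 CPM in the mono-culture and had means between 113 CPM with clone V and 554 CPM with clone N, led by Krt8, Krt18 and Krt19, while Epcam never exceeded 9 counts, Cldn4 was at 0 in 34 libraries and Esrp1 at 0 in 31. The part of residual tumour-cell RNA, or of the shifts in the other markers, in the results below was not tested. In bulk RNA, a change in the number of expressing cells and a change in RNA per cell cannot be told apart.

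Per unit of gene length, gp130 was the most abundant member and Il11 the least. Over the 36 libraries Il6st had 37.7 ± 5.03 RPKM (SD), followed by Socs3 (23.3 RPKM), Stat3 (22.5 RPKM) and Osmr (10.9 RPKM). Il33 (8.53 RPKM), Il6ra (6.24 RPKM), Il6 (4.71 RPKM), Lif (3.44 RPKM) and Lifr (2.19 RPKM) lay below them, and Il11 had 0.538 ± 0.369 RPKM. The ligands varied most between groups. The ratio of the highest to the lowest group mean in CPM was 22.6 for Il6, 11.3 for Lif and 8.47 for Il33, against 1.26 for Il6st.

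The first comparison asked whether fibroblast expression of the pathway differed between co-culture and mono-culture. Il6 and Il33 were higher with each of the 8 tumour lines, and Lif and Stat3 with most of them, whereas Il6st and Socs3 passed the test with none. In the mean of the 7 clonal co-cultures against mono-culture, 6 of the 10 members were higher and none was lower (Il6, Lif, Osmr, Lifr, Stat3 and Il33), where 24.3% of all genes tested were higher, 24.9% lower and 49.2% called in either direction. The median log2 difference was 0.584 over the members and 0.00578 over all genes tested.

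By line, members were set against the share of all genes tested that was called higher, and called at all. With clone E 6 members were higher (16.5% and 32% of all genes), and with clone H 6 members were higher (27.8% and 54.2% of all genes). With clone K 3 members were higher (10.4% and 19.1% of all genes), and with clone M 5 members were higher (12.2% and 23% of all genes). With clone N 6 members were higher (19.7% and 39% of all genes), and with clone T 5 members were higher (25% and 49.8% of all genes). With clone V 7 members were higher (29.4% and 58.3% of all genes). With KPC1 7 members were higher (30.5% and 59%) and Il6ra was lower (28.5%). Of all genes tested, the share whose 4 libraries lay above the 4 of the mono-culture was 18.1% (clone E), 26.1% (clone H), 14.2% (clone K), 15.1% (clone M), 20.2% (clone N), 24% (clone T), 25.8% (clone V) and 27.4% (KPC1), and the share whose 4 libraries lay below was 26.2% (KPC1). The 8 comparisons share the 4 mono-culture libraries. The count for clone M was the least steady: it was 2 without mono-culture replicate 2 or without clone M replicate 4, and 3 without mono-culture replicate 1, mono-culture replicate 4 or clone M replicate 3, with Il6, Il6ra and Stat3 near the threshold. Being higher with each of the 8 lines, as Il6 and Il33 were, held for 3.42% of all genes tested.

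**Figure D1:**
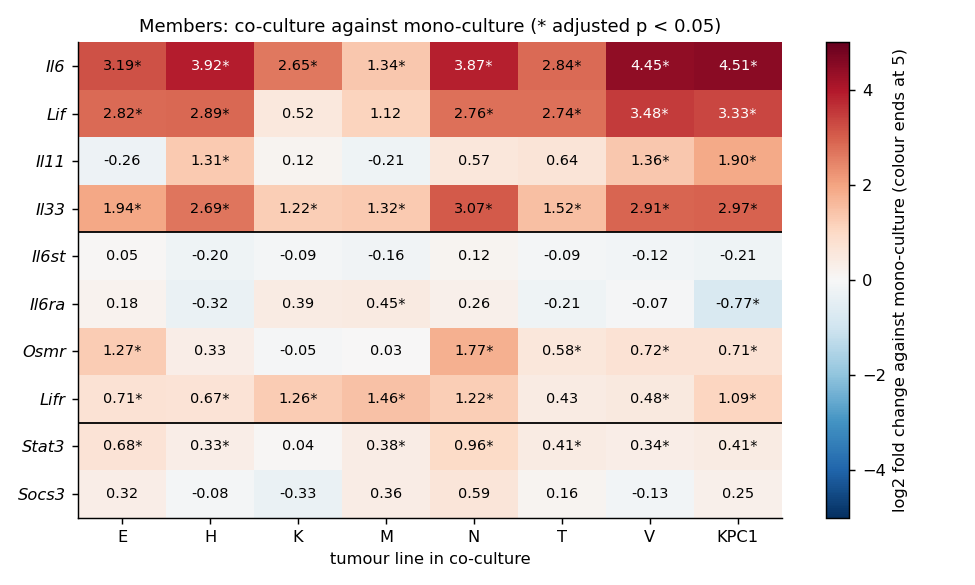
Log2 fold change of each member (rows: ligands, receptors, signal and feedback) in fibroblasts co-cultured with each tumour line (columns) against mono-culture, 4 libraries a group, with an asterisk at an adjusted p under 0.05 in edgeR. The row of Il6 runs from 1.34 with clone M to 4.51 with KPC1, and the row of Il6st holds no called value.

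Il6 encodes the founding cytokine of the family and lies at chr5:30013114-30019981, plus strand (GRCm38). It was 0.495, 0.550, 0.608 and 0.320 CPM in the 4 mono-culture libraries. With clones K, M and T the values were low to middling, at 4.81, 3.19, 3.28 and 0.990 CPM, 0.931, 0.850, 1.32 and 1.87 CPM and 3.71, 4.73, 3.44 and 2.10 CPM. All 32 co-culture libraries lay above the highest of the mono-culture.

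With clones E and H, Il6 was 5.55, 4.84, 3.56 and 3.83 CPM and 6.17, 9.90, 8.31 and 5.19 CPM. With clones N and V it was 8.46, 5.31, 7.25 and 7.54 CPM and 11.3, 12.2, 11.9 and 7.24 CPM. The widest spread was with KPC1, at 19.2, 11.6, 6.90 and 6.79 CPM, where replicate 1 was the highest library of the series. The rise was 9.06-fold in the mean of the 7 clones, a log2 fold change of 3.18 (adjusted p = 3.4e-08, SE 0.37) in edgeR. It ranged from 1.34 (adjusted p = 0.036, SE 0.47) for clone M to 4.45 (adjusted p = 4.4e-10, SE 0.42) for clone V and 4.51 (adjusted p = 3.5e-10, SE 0.42) for KPC1 in edgeR. The order of the means was KPC1, V, H, N, E, T, K, M and mono-culture, and of its 8 neighbouring pairs 1 passed the test, clone M over mono-culture (adjusted p = 0.036 in edgeR). That call was lost with no filter on low counts (adjusted p = 0.059), in limma on log2(RPKM + 1) (adjusted p = 0.13) and without any 1 of mono-culture replicates 1, 2 and 4 and clone M replicates 3 and 4 (adjusted p = 0.061 to 0.13).

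Lif encodes leukaemia inhibitory factor (chr11:4257557-4272514, plus strand). It was 2.04, 2.15, 2.28 and 2.83 CPM in the mono-culture and overlapped that range with clone K, at 5.09, 1.82, 4.60 and 1.80 CPM. With clone M it was 2.73, 3.64, 8.998 and 4.92 CPM. Neither passed the test, with log2 fold changes of 0.52 (95% interval -0.44 to 1.48) and 1.12 (0.17 to 2.07). Clone M did pass in DESeq2 (adjusted p = 0.03) and in edgeR with only the 8 libraries compared (adjusted p = 0.021). It also passed, narrowly, without its replicate 1 (adjusted p = 0.05 after rounding).

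Lif was higher with the other lines. With clone E it was 18.4, 8.63, 26.01 and 13.3 CPM, with clone H 16.9, 22.02, 21.99 and 8.60 CPM and with clone N 13.1, 16.7, 23.7 and 10.4 CPM. It was 19.1, 15.6, 17.04 and 10.9 CPM with clone T and 27.5, 31.5, 22.3 and 23.5 CPM with clone V. With KPC1 it was 45.4, 19.5, 19.8 and 9.52 CPM, replicate 1 again standing highest. These 24 libraries all lay above the mono-culture. Log2 fold changes for the 6 lines ran from 2.74 (adjusted p = 1.1e-05, SE 0.45) for clone T to 3.48 (adjusted p = 1.9e-07, SE 0.46) for clone V in edgeR. In the order V, KPC1, H, E, N, T, M, K and mono-culture, the step from clone T to clone M passed (adjusted p = 0.003 in edgeR) and the other 7 neighbouring pairs did not.

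Il11 encodes interleukin-11, a cytokine known from fibrosis (chr7:4772373-4782859, minus strand). It was near the limit of these libraries, at 0.716, 0.495, 0.456 and 0.731 CPM in the mono-culture. It passed the test with clone H (1.92, 1.16, 1.86 and 1.14 CPM), clone V (2.49, 1.69, 0.763 and 1.32 CPM) and KPC1 (1.79, 3.86, 1.54 and 1.94 CPM), and in each of these the 4 libraries lay above the mono-culture. The log2 fold changes were 1.31 (adjusted p = 0.014, SE 0.44) with clone H, 1.36 (adjusted p = 0.0093, SE 0.44) with clone V and 1.90 (adjusted p = 0.00046, SE 0.44) with KPC1 in edgeR. Without clone V replicate 1 the call with clone V was lost (1.05, adjusted p = 0.057).

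With the other clones Il11 overlapped the mono-culture. It was 0.670, 0.288, 0.307 and 0.766 CPM with clone E, 0.896, 0.520, 0.952 and 0.270 CPM with clone K and 0.248, 0.911, 0.344 and 0.597 CPM with clone M. It was 0.643, 0.650, 0.806 and 1.53 CPM with clone N and 0.393, 1.43, 1.09 and 0.886 CPM with clone T. The intervals of these log2 fold changes were wide, -1.20 to 0.78 for clone M and -0.28 to 1.57 for clone T. No neighbouring pair in its order of levels passed the test.

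Il33 encodes the alarmin interleukin-33 (chr19:29925114-29960718, plus strand). It was 5.40, 4.95, 3.73 and 4.25 CPM in the mono-culture, and all 32 co-culture libraries were higher. The lowest co-cultures were clone K, at 10.1, 12.6, 12.5 and 7.92 CPM, clone M, at 6.64, 14.2, 10.95 and 14.3 CPM, and clone T, at 10.3, 18.9, 9.996 and 13.8 CPM. Clone E stood in between, at 16.1, 16.1, 16.7 and 21.6 CPM.

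The highest levels of Il33 were with clone H (25.5, 41.97, 24.7 and 26.9 CPM), clone N (23.4, 38.7, 37.9 and 55.1 CPM), clone V (28.5, 34.9, 25.7 and 49.8 CPM) and KPC1 (57.9, 33.8, 19.1 and 33.02 CPM). The rise was 4.28-fold in the mean of the clones, a log2 fold change of 2.10 (adjusted p = 1.7e-07, SE 0.27) in edgeR, and ran from 1.22 (adjusted p = 0.0051, SE 0.31) with clone K to 3.07 (adjusted p = 9e-09, SE 0.31) with clone N. In the order N, KPC1, V, H, E, T, M, K and mono-culture, clone H lay above clone E (adjusted p = 0.04) and clone K above mono-culture (adjusted p = 0.0051 in edgeR), and the other 6 neighbouring pairs did not pass.

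**Figure D2:**
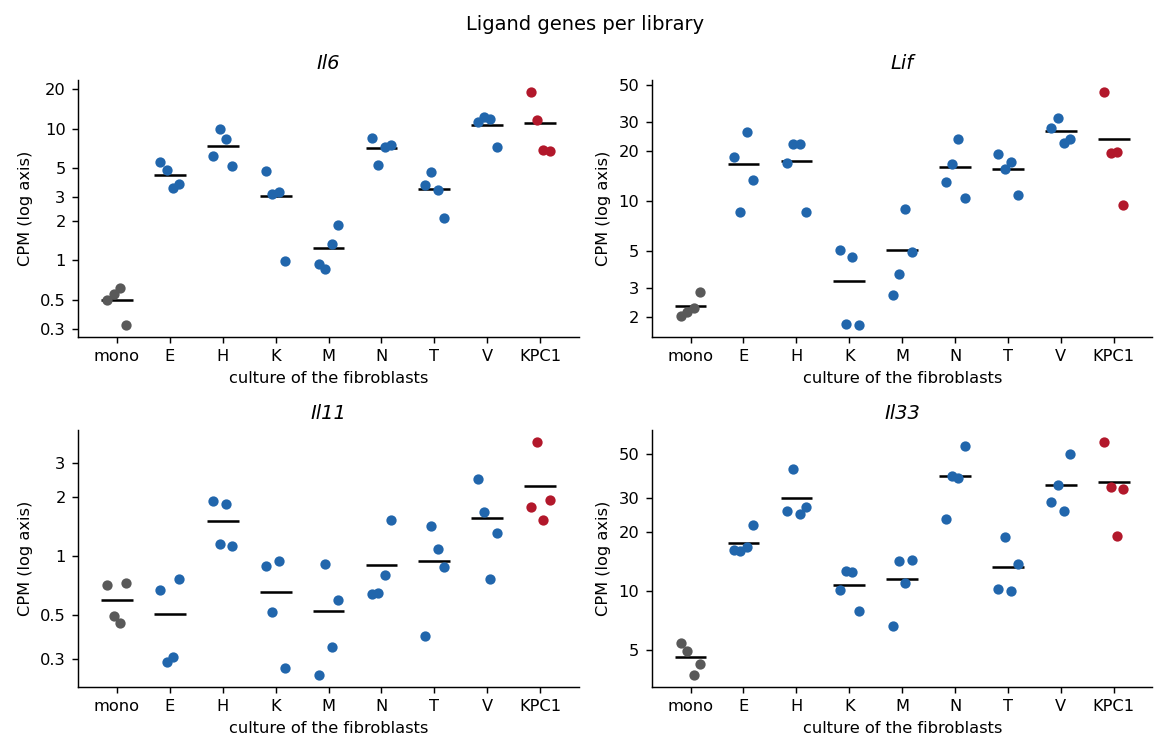
CPM (log axis) of Il6, Lif, Il11 and Il33 in each of the 36 fibroblast libraries, by culture, with the group mean as a bar. The points of Il6 and Il33 in co-culture all lie above the mono-culture (highest 0.608 and 5.40 CPM), while Il11 overlaps it for clones E, K, M, N and T.

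The epithelial marker sum was lowest with clone V (113 CPM), followed by clones K (162 CPM), H (179.6 CPM), M (265 CPM) and E (371 CPM), KPC1 (380.4 CPM) and clones T (541 CPM) and N (554 CPM). Beside these sums, clone N had the highest mean of Il33 (38.8 CPM), KPC1 the highest of Il6 (11.1 CPM) and clone V the highest of Lif (26.2 CPM), and clone T had 3.49 CPM of Il6. KPC1 and clones V and H, with the highest means of Il6, had 6, 5 and 5 of 10 fibroblast markers called lower, and clone T had 6. With these 4 lines 4, 2, 3 and 4 were called higher, and 59%, 58.3%, 54.2% and 49.8% of all genes tested were called in either direction. The epithelial markers differed by line, Cdh1 running from -2.76 to 6.89 on the log2 scale against mono-culture. The sum is thus no common measure of tumour-cell RNA, and the part of such RNA in these levels was not tested. The values with KPC1 rested in part on replicate 1: without it the log2 fold change against mono-culture was 4.10 for Il6, 2.79 for Lif and 2.63 for Il33, each still called.

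The promoters of Il6 and Lif are shown because they had the highest fold changes of the ligand genes. In the mean of the clones these were 9.06 and 5.04, against 4.28 for Il33. That of Socs3 is shown because it is the textbook target of STAT3. RefSeq (GRCm38.p6) gave 13 start sites for the 10 members, and the 250 bases before each were searched on both strands for 4 motifs: a kappaB-like motif (GGG and TTTCC with any 2 bases between them), the STAT motif (TTCNNNGAA), the AP-1 motif (TGACTCA) and the CRE motif (TGACGTCA). They occur in 1.41%, 7.02%, 4.46% and 1.55% of 32851 promoters. A match, in capitals below, is a description and not evidence of binding, and each stretch ends before the next annotated exon base. The stretch of Socs3 lies before its RefSeq start but within an intron of a longer GENCODE transcript of the gene.
Il6, chr5:30012864-30013113, plus strand, 250 bases: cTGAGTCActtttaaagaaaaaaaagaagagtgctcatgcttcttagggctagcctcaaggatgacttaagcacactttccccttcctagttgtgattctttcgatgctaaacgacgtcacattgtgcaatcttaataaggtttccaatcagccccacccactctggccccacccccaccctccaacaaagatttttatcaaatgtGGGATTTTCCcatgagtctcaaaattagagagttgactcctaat
Lif, chr11:4257318-4257556, plus strand, 239 bases: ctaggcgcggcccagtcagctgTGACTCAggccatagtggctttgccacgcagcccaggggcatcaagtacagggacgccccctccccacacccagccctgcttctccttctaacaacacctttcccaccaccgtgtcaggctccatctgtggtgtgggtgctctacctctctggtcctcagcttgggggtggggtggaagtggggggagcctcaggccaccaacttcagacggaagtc
Socs3, chr11:117969452-117969616, minus strand, 165 bases: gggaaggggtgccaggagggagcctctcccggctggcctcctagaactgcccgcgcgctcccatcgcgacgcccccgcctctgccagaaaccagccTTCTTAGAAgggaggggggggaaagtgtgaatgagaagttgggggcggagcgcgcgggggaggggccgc
Il6 held an AP-1 match 249 to 243 bases and a kappaB-like match 44 to 35 bases before its start. Lif held an AP-1 match 228 to 222 bases before its start and Il11 one (TGAGTCA) 98 to 92 bases before its other start, not shown. Socs3 held the STAT match TTCTTAGAA 154 to 146 bases before its start. The other 9 starts, those of Il33 and Stat3 among them, had no match in these windows.

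Among the receptor genes, Il6st passed the test with no line while Osmr and Lifr rose with different lines. Il6st encodes gp130, the chain shared by the family (chr13:112464070-112510086, plus strand). Its group means lay between 298 CPM with KPC1 and 374 CPM with clone N, against 344 ± 54.5 CPM (SD, n = 4) in the mono-culture, and 25 of 32 co-culture libraries lay within the mono-culture range. The log2 difference in the mean of the clones was -0.070 (95% interval -0.27 to 0.13), and the extremes were -0.21 (-0.47 to 0.050) with KPC1 and 0.12 (-0.14 to 0.38) with clone N. Scaling by library totals alone called Il6st lower with KPC1 (log2 fold change -0.30, adjusted p = 0.022) and with clone H (-0.30, adjusted p = 0.027). Limma on log2(RPKM + 1) and on log2(RPKM + 0.1) did so too, with KPC1 (adjusted p = 0.025 and 0.024) and with clone H (0.032 in each). A replicate block in edgeR, which joins libraries of the same number in all groups, mono-culture included, called it lower with KPC1 (adjusted p = 0.048). The main fit therefore does not exclude a small decrease with these lines.

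Osmr encodes the oncostatin M receptor (chr15:6813577-6874969, minus strand). It was 44.8, 35.4, 27.9 and 36.6 CPM in the mono-culture and reached 121, 122, 115 and 135 CPM with clone N and 82.9, 94.9, 82.9 and 88.5 CPM with clone E. These 8 libraries were the highest of the series, followed by 82.7 CPM in clone V replicate 2. On the log2 scale the rise was 1.77 (adjusted p = 2.3e-07, SE 0.22) with clone N and 1.27 (adjusted p = 4.9e-05, SE 0.22) with clone E in edgeR.

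Smaller rises of Osmr passed the test with clone V (48.7, 82.7, 50.2 and 56.2 CPM, log2 fold change 0.72), with clone T (35.3, 70.7, 49.1 and 61.8 CPM, 0.58, lost with library totals alone at an adjusted p of 0.054) and with KPC1 (65.5, 63.3, 49.6 and 58.3 CPM, 0.71). Osmr was 39.3, 27.5, 43.04 and 29.9 CPM with clone K, 20.1, 42.1, 44.7 and 41.6 CPM with clone M and 36.5, 58.5, 34.4 and 52.3 CPM with clone H, overlapping the mono-culture, and none of these passed. The call with clone T was also lost without mono-culture replicate 3 (adjusted p = 0.089), clone T replicate 2 (0.12) or clone T replicate 4 (0.068). Clone E was above each of the clones H, K, M, T and V and KPC1, with adjusted p from 0.00019 to 0.037, and clone N was too, with adjusted p from 1.6e-06 to 0.0014. The difference of 0.50 between clones N and E did not pass (adjusted p = 0.29, edgeR, 183 genes called between them). Clones N and E had epithelial marker sums of 554 and 371 CPM, and clone T, with 541 CPM, had 54.2 CPM of Osmr. What part of the Osmr levels came from tumour-cell RNA was not tested.

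Lifr encodes the LIF receptor (chr15:7090614-7197489, plus strand), and its order of lines was another one. It was 13.9, 9.90, 9.58 and 12.3 CPM in the mono-culture and highest with clone M (34.3, 30.97, 30.8 and 29.9 CPM) and clone K (26.7, 25.7, 28.6 and 28.8 CPM), the lines with the lowest Lif among the co-cultures. Their log2 fold changes were 1.46 (adjusted p = 3.4e-06, SE 0.21) and 1.26 (adjusted p = 3.7e-05, SE 0.21) in edgeR. With clone N it was 29.5, 33.96, 18.3 and 24.8 CPM (1.22) and with KPC1 35.7, 21.2, 21.5 and 19.2 CPM (1.09), both called.

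Lifr was 16.9, 22.3, 16.9 and 19.02 CPM with clone E (0.71, called) and 17.2, 15.9, 21.2 and 18.9 CPM with clone H (0.67, called). With clone V it was 8.50, 14.4, 18.6 and 22.5 CPM, and the call (log2 fold change 0.48, adjusted p = 0.047) was lost with library totals alone (adjusted p = 0.12), with no filter (0.059), with the 8 libraries fitted alone (0.15), without any 1 of mono-culture replicates 2, 3 and 4 and clone V replicates 3 and 4 (0.054 to 0.27) and without any 1 of clone H replicate 1, clone K replicates 1 to 4, clone M replicates 1 to 3 and clone T replicates 2 and 3 (0.05 to 0.051). With clone T it was 14.8, 16.4, 14.9 and 15.6 CPM, with no overlap with the mono-culture but an adjusted p of 0.084 in edgeR. Lifr with clone T was called without clone V replicate 1 (0.041) and with the 8 libraries fitted alone (0.016). In all, 31 of 32 co-culture libraries lay above the mono-culture, the exception being clone V replicate 1.

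Il6ra encodes the IL-6 receptor alpha chain (chr3:89864059-89913196, minus strand), and its locus overlaps an annotated antisense gene, Gm42809, so reads of the pair cannot be told apart if counting ignored strand. It was 22.6, 19.6, 18.3 and 20.4 CPM in the mono-culture and fell with KPC1, to 10.7, 13.4, 13.2 and 10.2 CPM, all 4 libraries below the mono-culture. The log2 fold change was -0.77 (adjusted p = 0.00014, SE 0.16) in edgeR. It was higher with clone M, at 23.5, 30.97, 25.8 and 30.7 CPM and a log2 difference of 0.45 (adjusted p = 0.036, SE 0.16) in edgeR, a call lost with library totals alone (adjusted p = 0.051) and without any 1 of mono-culture replicates 2, 3 and 4 and clone M replicates 2 and 4 (adjusted p = 0.067 to 0.1).

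With clone K, Il6ra was 25.7, 23.01, 31.5 and 26.5 CPM, 4 of 4 libraries above the mono-culture, with an adjusted p of 0.079 in edgeR (0.018 with only the 8 libraries compared). With clones E and N it was 17.4, 26.4, 23.6 and 24.6 CPM and 29.1, 25.8, 24.04 and 18.1 CPM. With clones H, T and V it was 17.9, 19.2, 13.7 and 14.4 CPM, 20.8, 14.01, 19.5 and 15.7 CPM and 14.96, 22.7, 21.6 and 17.8 CPM. With library totals alone clone H was called lower (log2 fold change -0.41, adjusted p = 0.034). KPC1 and clone H were the lowest groups and clones M and K the highest, and no neighbouring pair passed the test.

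**Figure D3:**
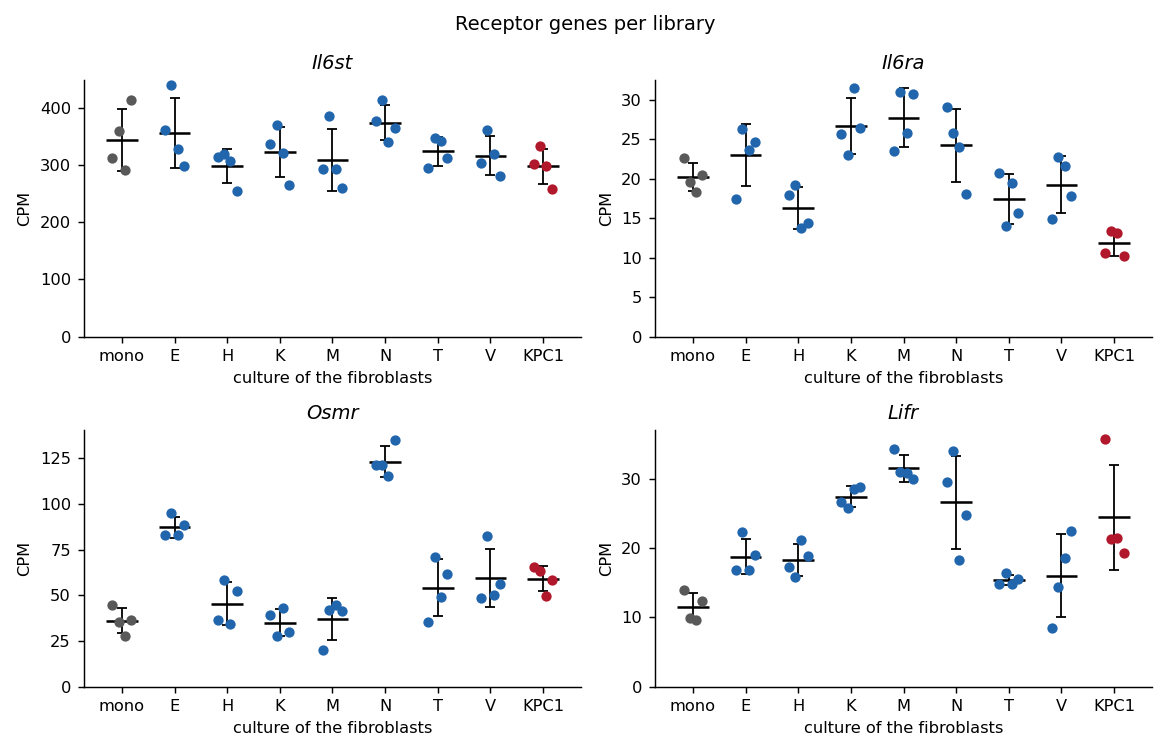
CPM of Il6st, Il6ra, Osmr and Lifr in each of the 36 fibroblast libraries, by culture, with the group mean (bar) and SD (error bar, n = 4) on axes that start at 0. Osmr stands apart for clones N and E (123 and 87.3 CPM), Lifr is highest for clone M (31.5 CPM) and Il6ra lowest for KPC1 (11.9 CPM).

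Stat3 encodes the transcription factor that the receptors activate (chr11:100885098-100939540, minus strand) and overlaps Stat5a on the opposite strand. Its mRNA was 107, 89.1, 99.6 and 109.9 CPM in the mono-culture, 171, 230.0, 201 and 188 CPM with clone N and 128, 179, 177 and 164 CPM with clone E. The log2 fold changes of these lines were 0.96 (adjusted p = 8.3e-07, SE 0.13) and 0.68 (adjusted p = 0.00019, SE 0.13) in edgeR. Clone N exceeded every other co-culture but clone E, with adjusted p from 9.9e-06 to 0.01 over 6 pairs.

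Stat3 was also higher with clone H (131, 125, 131 and 123 CPM), clone T (127, 128, 144 and 141 CPM), KPC1 (135, 124, 146 and 135 CPM), clone M (103, 117, 151 and 156 CPM) and clone V (97.01, 133, 146 and 136 CPM). These log2 fold changes were 0.33 to 0.41, and with library totals alone those of clones H, M and V no longer passed (adjusted p = 0.14, 0.053 and 0.13). The calls were also lost with 1 library left out: for clone H without mono-culture replicate 2 or clone H replicates 1 or 3 (adjusted p = 0.06 to 0.11), for clone V without mono-culture replicate 2 or clone V replicates 2, 3 or 4 (0.055 to 0.092) and for clone M without mono-culture replicates 1, 2 or 3 or clone M replicates 3 or 4 (0.053 to 0.15). With clone K it was 92.9, 86.1, 122 and 115 CPM and did not pass, at 0.041 (95% interval -0.23 to 0.31).

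Socs3, the feedback inhibitor of gp130 signalling (chr11:117966079-117970047, minus strand), passed the test against mono-culture with no line. The mono-culture libraries themselves were widely spread, at 31.4, 50.6, 98.3 and 34.2 CPM, replicate 3 being above 31 of the 32 co-culture libraries. Without that library Socs3 was called higher in the mean of the clones (log2 fold change 0.60, adjusted p = 0.0094), and with clones E (0.79), M (0.83), N (1.07), T (0.63) and KPC1 (0.72), while the values for clones H, K and V turned from negative to positive without passing. The absence of a call with these lines and in the mean of the clones changed with that library. Clone N was also called without clone N replicate 1 (adjusted p = 0.028), without clone M replicate 2 (0.047) and with a replicate block (0.024).

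Across lines, Socs3 was 51.7, 87.3, 79.2 and 103 CPM with clone N, 65.7, 38.1, 93.8 and 76.1 CPM with clone M and 67.2, 62.04, 63.0 and 74.2 CPM with clone E. It was 60.2, 55.4, 60.4 and 61.8 CPM with clone T and 67.6, 49.7, 63.8 and 72.7 CPM with KPC1. It was lowest with clone H (50.8, 44.7, 60.02 and 46.4 CPM), clone V (35.2, 43.7, 62.2 and 53.5 CPM) and clone K (42.9, 37.3, 47.5 and 41.9 CPM). With all 4 mono-culture libraries, the log2 fold changes ran from -0.33 (95% interval -0.86 to 0.20) for clone K to 0.59 (0.065 to 1.12) for clone N.

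**Figure D4:**
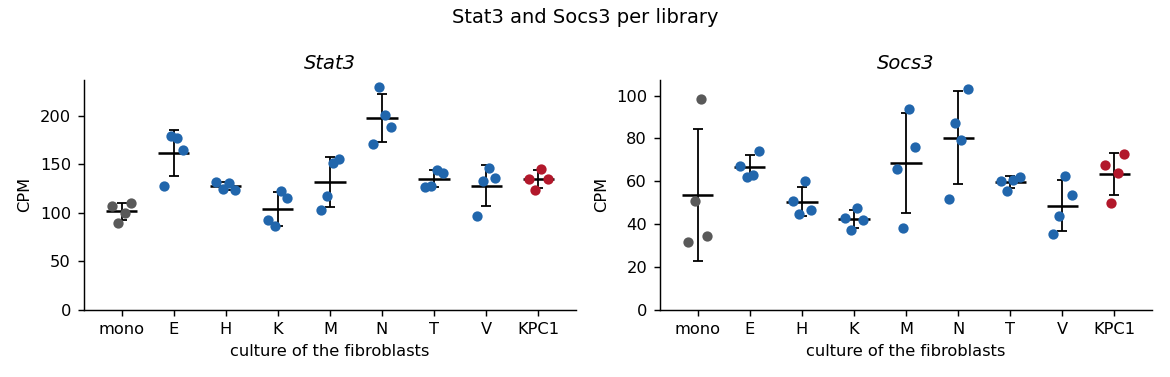
CPM of Stat3 and Socs3 in each of the 36 fibroblast libraries, by culture, with the group mean (bar) and SD (error bar, n = 4) on axes that start at 0. Stat3 is highest for clones N and E (198 and 162 CPM), and 1 mono-culture library of Socs3, at 98.3 CPM, stands above the others of its group.

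The next comparison asked whether the members differed among the 7 clonal co-cultures. Of the 10 members, 9 did, where 67.5% of all genes tested were called. The exception was Il6st (adjusted p = 0.2 in edgeR). The adjusted p was 2.9e-08 for Osmr, 2.2e-07 for Il6, 4.4e-07 for Il33, 6.4e-06 for Lif and 9.3e-06 for Stat3. It was 4.6e-05 for Lifr, 0.0002 for Il6ra, 0.004 for Il11 and 0.025 for Socs3, the last being lost with no filter (0.062) and without any 1 of clone K replicates 2 and 4 and clone N replicates 2 and 4 (0.052 to 0.069). The orders of the means were not the same: among the clones, V and H had the highest means of Il6, Lif and Il11, N and E of Osmr and Stat3, and M and K of Lifr and Il6ra. The step from these pairs to the next clone passed for Osmr (E over V, adjusted p = 0.037 in edgeR). It did not pass for Il6 (H over N, 0.92), Lif (H over E, 0.91) or Il11 (H over T, 0.38). Nor did it for Stat3 (E over T, 0.19), Lifr (K over N, 0.91) or Il6ra (K over N, 0.59).

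KPC1 was then compared with the mean of the 7 clonal co-cultures. Il6 at a log2 fold change of 1.33 (adjusted p = 2.8e-05, SE 0.22), Lif at 0.9999 (adjusted p = 0.0045, SE 0.27), Il11 at 1.39 (adjusted p = 3e-04, SE 0.29) and Il33 at 0.87 (adjusted p = 0.00086, SE 0.20) were higher with KPC1 in edgeR. Il6ra was lower at -0.87 (adjusted p = 7.2e-06, SE 0.13) in edgeR. These were 5 of 10 members, where 41.1% of all genes were called, 22.3% higher and 18.8% lower. The other 5 did not pass, with intervals such as -0.28 to 0.37 for Osmr and -0.24 to 0.16 for Stat3. KPC1 replicate 1 decided part of this: without it Lif (0.46, adjusted p = 0.25) and Il33 (0.53, adjusted p = 0.055) lost their calls, and Il6 (0.92), Il11 (1.49) and Il6ra (-0.83) kept theirs.

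Other genes of the pathway, taken from lists, moved in both directions. Of 8 further ligands of the family, 3 were tested and 1 was higher in the mean of the clones against mono-culture, where 24.3% of all genes tested were higher, 24.9% lower and 49.2% called at all. This was Clcf1, a ligand of the ciliary neurotrophic factor receptor, at 15.7 ± 1.85 CPM (SD, n = 4) in the mono-culture, with a log2 fold change of 1.02 (adjusted p = 1.1e-06, SE 0.15) in edgeR and a call with each of the 8 lines. Ctf1, which encodes cardiotrophin 1, was 4.33 ± 0.683 CPM in the mono-culture and did not pass (-0.19 on the log2 scale, adjusted p = 0.47 in edgeR). Osm, the ligand of the receptor encoded by Osmr, had at most 1 count in a library.

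Of 6 further receptor chains and shedding proteases, 5 were tested, 2 were lower and none was higher, against 24.9% and 24.3% of all genes. Il11ra1, the IL-11 receptor alpha chain, was lower at a log2 difference of -0.61 (adjusted p = 1.6e-06, SE 0.090) in the mean of the clones in edgeR. It was 80.7 ± 2.45 CPM in the mono-culture and lowest with clone V, at 31.6 ± 6.33 CPM. By line its log2 fold changes reached -1.35, and it was called lower with 6 lines, not with clones K and M. Near-identical copies of this gene in the mouse make its count uncertain. The protease gene Adam10 was lower by a small amount (-0.18, adjusted p = 0.05 after rounding), and Adam17, which sheds the IL-6 receptor, did not pass (0.080).

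Of 7 JAK kinases and relay genes, all tested, 2 were higher and none lower in the mean of the clones, against 24.3% and 24.9% of all genes. By line, 1 to 3 were higher, where 10.4% (clone K) to 30.5% (KPC1) of all genes were. The lower ones numbered 2 (clone H), 1 (clone T), 4 (clone V), 3 (KPC1) and none for the other lines. With clones H, T and V and KPC1, 4, 3, 6 and 5 of the 7 were called in either direction. For all genes tested these shares were 54.2%, 49.8%, 58.3% and 59%. Jak2 was higher in the mean of the clones at a log2 difference of 0.92 (adjusted p = 1.3e-07, SE 0.12) in edgeR. It was 69.2 ± 3.35 CPM in the mono-culture and highest with KPC1, which is not in that mean, at 174 ± 48.1 CPM. By line its log2 fold changes reached 1.33, and it was called with each of the 8 lines. Jak1, the most abundant, was higher by 0.30 on the log2 scale, and Ptpn11, a phosphatase of the relay, did not pass (0.10).

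Of 10 feedback inhibitors other than Socs3, all tested, 6 were higher and none lower in the mean of the clones, against 24.3% and 24.9% of all genes. By line, 2 were lower with clone V, 2 with clone T and 1 with KPC1. With these lines 8, 8 and 7 of the 10 were called in either direction, against 58.3%, 49.8% and 59% of all genes tested. Dusp6, a phosphatase that acts on ERK rather than on STAT3, rose most in the mean of the clones, at a log2 difference of 2.06 (adjusted p = 5.5e-06, SE 0.32) in edgeR. It was 28.4 ± 16.6 CPM in the mono-culture and highest with clone H, at 159 ± 53.5 CPM. By line its log2 fold changes reached 2.50. Socs5 (0.43) and Socs7 (0.28) rose less, and the other 3 higher genes were Socs2, Cish and Ptpn1. Socs2, Ptpn1 and Dusp6 were each called with all 8 lines.

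Of 20 known STAT3 target genes, 18 were tested, 9 were higher and 2 lower in the mean of the clones, with a median log2 fold change of 0.342. Of all genes tested, 24.3% were higher and 24.9% lower, with a median of 0.00578. Junb, an AP-1 subunit, was higher at a log2 difference of 0.88 (adjusted p = 0.0037, SE 0.25) in edgeR, while Hif1a did not pass (-0.041). The highest log2 fold change called was that of the acute-phase gene Serpina3n at a log2 difference of 1.78 (adjusted p = 0.0079, SE 0.55) in edgeR, and it rested on 2 lines. It was 9.73 ± 3.88 CPM with clone E and 10.3 ± 2.89 CPM with clone N, against 0.411 ± 0.355 CPM in the mono-culture and at most 1.11 ± 0.824 CPM with any other line.

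Cebpd, a transcription factor of the acute-phase response, had the lowest log2 fold change called in the mean of the clones at a log2 difference of -0.51 (adjusted p = 0.041, SE 0.21) in edgeR, and its direction differed by line. It was 54.8 ± 1.86 CPM in the mono-culture, higher with clone N (93.2 ± 23.03 CPM, called) and 70.1 ± 12.1 CPM with clone E, where it did not pass (0.35). It was lower and called with clones H, T and V and KPC1, at 20.96, 25.9, 25.5 and 20.9 CPM. The lines highest for Serpina3n and Cebpd were those highest for Osmr and Stat3. The number of target genes called higher was 3 with clone K, 4 with clone M, 7 with clone T, 8 with clone E, 9 with clone H, 9 with clone V, 10 with clone N and 10 with KPC1. Over all genes tested the share called higher was 10.4% with clone K, 12.2% with clone M, 25% with clone T and 16.5% with clone E. It was 27.8% with clone H, 29.4% with clone V, 19.7% with clone N and 30.5% with KPC1. Target genes called lower were 3 with clone M, 2 each with clones K and T, 1 each with clones H and V and KPC1 and none with clones E and N. With KPC1 28.5% of all genes tested were lower. Called in either direction were 23% of all genes with clone M, 19.1% with clone K, 49.8% with clone T and 54.2% with clone H. With clone V, KPC1 and clones E and N these shares were 58.3%, 59%, 32% and 39%.

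Of 12 genes around IL-33 and IL-1, 9 were tested, 3 were higher and 2 lower in the mean of the clones, where 49.2% of all genes were called (24.3% higher, 24.9% lower). Il1rl1, which encodes the IL-33 receptor ST2, was lower at a log2 difference of -0.80 (adjusted p = 0.0029, SE 0.22) in edgeR. It fell with clones K, M and T, from 18.4 ± 3.59 CPM to 4.23 ± 1.13, 3.02 ± 0.942 and 8.15 ± 2.996 CPM, and passed with no other line. Il1r1, the IL-1 receptor, was higher with each of the 8 lines (0.78 in the mean of the clones), and the kinase gene Irak1 did not pass (0.0080).

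Il1rn, the IL-1 receptor antagonist, had the largest change among the pathway genes named here, a log2 difference of 4.08 (adjusted p = 5.3e-07, SE 0.55) in the mean of the clones in edgeR. It was 0.331 ± 0.195 CPM in the mono-culture, 26.3 ± 4.99 CPM with clone E, 25.4 ± 10.8 CPM with clone N and 62.6 ± 44.9 CPM with clone T, and at most 2.29 ± 1.32 CPM with any other line. Clones T, N and E were also 3 of the 4 co-cultures with the highest epithelial marker sums (541, 554 and 371 CPM, with KPC1 at 380.4 CPM), and Il1rn with KPC1 was 1.28 ± 0.571 CPM. The part of tumour-cell RNA in these values was not tested.

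**Figure D5:**
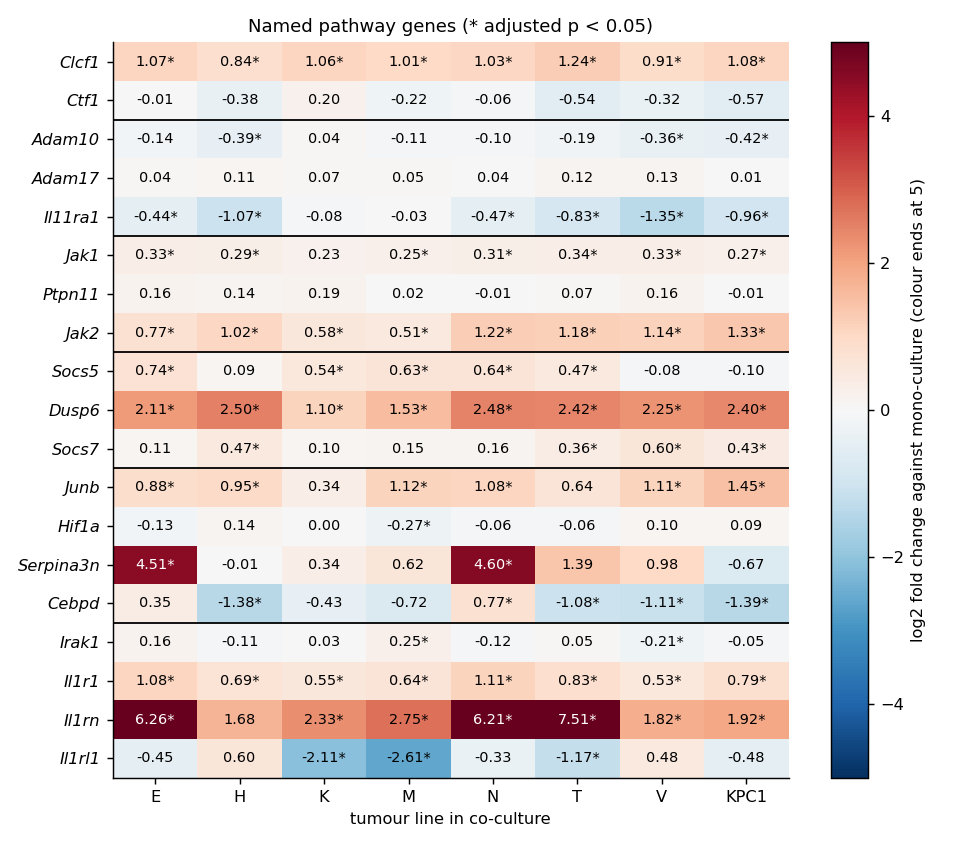
Log2 fold change against mono-culture of the pathway genes named by rule (rows, blocks by list: ligands, receptors and proteases, JAK and relay, feedback, STAT3 targets, IL-33 and IL-1) with each tumour line (columns), with an asterisk at an adjusted p under 0.05 in edgeR. Jak2, Clcf1, Dusp6 and Il1r1 are higher with every line, while Serpina3n is called for clones E and N alone (4.51 and 4.60).

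The genes whose log2 CPM followed each member most closely over the 36 libraries were found among 11695 genes by Pearson correlation. The libraries share their groups, so these values are descriptions. For Il6 they were Tslp (r = 0.934), a cytokine, Mcl1 (0.929), a survival factor, and Ctgf (0.926), a matricellular protein. For Lif they were Hk2 (0.940), the glycolytic enzyme hexokinase, Abcb1a (0.929) and Fam84b (0.925), and for Il33 Smim3 (0.889), Rgs16 (0.886) and Sphk1 (0.886). For Stat3 they were Sbno2 (0.894), Ptpn1 (0.868) and Wipi1 (0.832), and for Osmr Pde1a (0.874), Gem (0.842) and Serpina3g (0.830). Lower values were found for Il6ra (Fzd1 0.863, 5830428H23Rik 0.855, Setbp1 0.855), Lifr (Fmnl2 0.854, 8430427H17Rik 0.817, Tfeb 0.810), Il11 (Rad18 0.834, Ciapin1 0.828, Polr2c 0.826), Socs3 (Nr4a1 0.799, Rps6ka1 0.758, Eif3f 0.746) and Il6st (App 0.730, Atrnl1 0.701, Slc44a2 0.698).

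Among the members themselves, Il6 and Il33 (r = 0.883), Il6 and Lif (0.842) and Osmr and Stat3 (0.785) were most alike over the 36 libraries. Within groups, after the group means were removed, these values were 0.322, 0.528 and 0.322.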

How the data were processed

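Fibroblast RNA was sequenced as strand-specific poly(A) libraries (200 ng RNA, 14 PCR cycles, 76 bp paired ends). The deposited files hold the authors' unscaled read counts for 39017 genes and RPKM values for 37746 of them, which followed the library totals. The submitters' processing notes name STAR, featureCounts, edgeR and mm10. Versions, the annotation and the use of strand in counting are not given in the sources used here.

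Groups came from the labels. The deposited counts went into edgeR 4.0.16 (R 4.3.3): filterByExpr kept 14439 genes, TMM scaled the libraries, and 1 robust quasi-likelihood fit held the 36 libraries with a term for each of the 9 groups. Benjamini-Hochberg adjusted p-values had a threshold of 0.05, and standard errors were derived from the F-statistic. The KPC1 and clonal contrasts, the F-test among clones (6 contrasts) and pairs of groups came from this fit. RPKM was used only between genes and in limma 3.58.1 alternatives. Intervals cover the spread between libraries, and a floor of 3 counts covers counting error only. Within groups, libraries differed by at least 5.63 in chi-square per degree of freedom, so none was a duplicate. The procedure was tested on simulated counts.

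The members and lists were chosen with earlier results of these data known. The text names all members, the 2 most abundant genes of each list, the genes with its highest and lowest called log2 fold change in the mean of the clones, and the 3 genes most correlated with each member (mean of at least 2 CPM). Others named were chosen after their values were seen: Osm, Socs2, Cish, Ptpn1, Lcn2, Ccl2 and the markers. Some genes of the ligand and JAK lists are not reported here. Coordinates are from the GENCODE annotation of GRCm38 and promoters from RefSeq. Alternatives were DESeq2 1.42.0, RLE scaling, library totals alone, a minimum of 10 counts in each library, no filter, a replicate block, limma-trend with a pseudocount of 1 or 0.1 on RPKM, fitting only the 8 libraries compared, and leaving out each library.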

Additional observations from a re-analysis of the deposited data

Results flagged for a closer look

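In 4 of 90 sets of 4 libraries (10 members, 9 groups), 1 library stood apart by Dixon's ratio of its gap to the range of its group, above its 95% critical value. Chance gives about 1 in 20, or 4.5 sets. The libraries were clone M replicate 1, lowest for Osmr (ratio 0.872), KPC1 replicate 1, highest for Lifr (0.862), clone E replicate 4, highest for Il33 (0.889), and clone H replicate 2, highest for Il33 (0.872).

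The effect of co-culture differed between clones for 9 members by the edgeR F-test, with adjusted p of 2.2e-07 for Il6, 6.4e-06 for Lif, 0.004 for Il11, 0.0002 for Il6ra, 2.9e-08 for Osmr, 4.6e-05 for Lifr, 0.025 for Socs3, 9.3e-06 for Stat3 and 4.4e-07 for Il33. Of all genes tested, 67.5% were called in that F-test. The effect differed between KPC1 and the mean of the clones for 5 members, with log2 fold changes of 1.33 for Il6, 0.9999 for Lif, 1.39 for Il11, -0.87 for Il6ra and 0.87 for Il33. In that comparison 41.1% of all genes tested were called, 22.3% higher and 18.8% lower. KPC1 replicate 1 was the highest library of its group for Il6, Lif, Lifr and Il33.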

How the results depend on the processing

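No called member changed direction under any alternative run, with 1 library left out or under the other settings, and 39 of 4898 recomputed values changed sign, none of them called in the reported fit. At least 10 counts in every library removed low members from the test, Il6 and Il11 among them, and left 3 members called with clone H, 4 with clone V and 3 for KPC1 against the clones. For clone M, 3 members were called with library totals alone and with limma-trend with a pseudocount of 1 or 0.1 on RPKM. With 1 library left out, members called were 2 to 6 for clone M and 3 to 5 for KPC1 against the clones (3 without KPC1 replicate 1), and the other counts stayed within 1.5 times their value.

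Changes of sign, all of small values, were as follows on the log2 scale. Il6st with clone E became -0.0070 with library totals alone and -0.0031 in both limma fits, Stat3 with clone K -0.012, -0.021 and -0.022, Osmr with clone M -0.020 and -0.030 in the limma fits, and Il11 with clone K -0.010 with log2(RPKM + 0.1). With 1 library left out, the ranges that crossed 0 were, for Il6st, -0.056 to 0.15 (clone E), -0.16 to 0.013 (clone K), -0.15 to 0.020 (clone T) and -0.13 to 0.029 (mean of the clones). For Socs3 they were -0.27 to 0.40 (clone H), -0.32 to 0.35 (clone V), -0.53 to 0.14 (clone K), -0.034 to 0.63 (clone T) and -0.072 to 0.60 (mean of the clones), with mono-culture replicate 3 deciding the upper end. They were -0.16 to 0.038 for Il6ra with clone V, -0.11 to 0.39 and -0.63 to 0.023 for Il11 with clones K and M, -0.17 to 0.058 and -0.067 to 0.24 for Osmr with clones K and M, and -0.044 to 0.12 for Stat3 with clone K. For KPC1 against the clones they were -0.014 to 0.12 (Osmr), -0.044 to 0.31 (Lifr) and -0.075 to 0.013 (Stat3). The cause was not tested.

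The labels number the libraries of each group, but do not say what the numbers mark. The running index in the sample titles lists the co-cultures in sets by replicate number, and the mono-culture libraries after all of them. Deviations from the group means correlated with a median r of 0.0843 over 144 pairs of libraries with the same number (lowest -0.582) and -0.0231 over 432 pairs with different numbers. Among the co-cultures alone the same-number median was 0.143, with 63 of 112 pairs over 0.1. The mono-culture with a same-number co-culture had a median of -0.0233, with 5 of 32 pairs over 0.1. The 432 pairs, of which 109 were over 0.1, include pairs with the mono-culture. The numbers were left out of the main fit because not every pair was over 0.1. That rule does not show the libraries to be independent, and part of the co-cultures deviated together by number. The main fit leaves this shared part out. With the replicate block, members called were 6, 6, 6, 3, 5, 7, 5 and 9 for clones E, H, V, K, M, N, T and KPC1, 6 in the mean of the clones, 10 among the clones and 5 for KPC1 against the clones. Lifr with clone V was lost (adjusted p = 0.052), and Socs3 with clone N (0.024), Il6st with KPC1 (0.048) and Il6st among the clones (0.033) were gained. The block also joined each mono-culture library to the co-cultures of its number, pairs whose median r was -0.0233. Calls against mono-culture that it changed rest on that pairing. Depth limits Il11 and, in the mono-culture, Il6.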

Other observations

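In the comparison of KPC1 with the mean of the 7 clonal co-cultures, 12 of the 18 tested STAT3 target genes were higher and 3 lower in edgeR, where 22.3% and 18.8% of all genes were. Among them, chosen after their values were seen, Lcn2, which encodes lipocalin 2, at a log2 difference of 3.55 (adjusted p = 3.9e-05, SE 0.61) in edgeR, and the chemokine gene Ccl2 at a log2 difference of 1.57 (adjusted p = 4e-05, SE 0.27) in edgeR were higher, and Serpina3n at a log2 difference of -2.45 (adjusted p = 0.0018, SE 0.60) in edgeR and Cebpd at a log2 difference of -0.87 (adjusted p = 0.0043, SE 0.24) in edgeR were lower. Il1rn was lower too at a log2 difference of -2.16 (adjusted p = 0.00022, SE 0.43) in edgeR. Stat3 itself did not pass in this comparison. Lcn2 lay near the floor, with a mean of 0.321 CPM over the 36 libraries, 0 counts in 9 of them and at most 91 counts. How far its difference rested on single libraries was not tested.

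Within the 8 co-cultures, Il6st was highest in replicate 2 in 8 of 8 and lowest in replicate 4 in 6. Il6 and Lif were each lowest in replicate 4 in 5 of 8.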
